A study of Saccharomyces cerevisiae with 32 samples.

Results

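Nitrogen uptake and glutamate metabolism in budding yeast were followed through 10 genes, 5 for plasma membrane transporters (GAP1, MEP1, MEP2, MEP3 and DUR3) and 5 for enzymes (GLN1, GDH1, GDH2, GDH3 and GLT1). The rows were found by symbol, and all 10 were found among the 5328 genes that occurred in at least 1 of 4 tables. The ded1-ts table held all 10. The other tables held 9 each, and GDH3 was not analysed there. The genes were chosen by name with the footprint, mRNA and TE values of these same tables in view, so those values are a description and were not tested.

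Yeast takes up ammonium through the Mep permeases, amino acids through Gap1 and urea through Dur3. Ammonium is joined to 2-oxoglutarate by the NADP-dependent glutamate dehydrogenases Gdh1 and Gdh3, or to glutamate by the glutamine synthetase Gln1, while the glutamate synthase Glt1 turns glutamine and 2-oxoglutarate into glutamate. Gdh2 runs in the opposite direction and releases ammonium from glutamate. Transcription of GAP1, MEP2, DUR3 and many genes for poor nitrogen sources is held low by good nitrogen sources through the GATA factors Gln3, Gat1, Dal80 and Gzf3, a control known as nitrogen catabolite repression.

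The series asked how mutations in the RNA helicases Ded1 and eIF4A, which act in translation initiation, changed translational efficiency (TE), which sets a gene's ribosome footprints against its mRNA. Whole cells of Saccharomyces cerevisiae in synthetic complete medium, given 100 µg/ml cycloheximide for the last 2 min, gave 16 mRNA and 16 footprint libraries in 16 groups of 2 replicates. The deposited tables hold 1 value per group, so no change below has a replicate check and none has a p-value. All cultures went through a temperature shift. Cold-sensitive ded1-cs (strain NSY5) was compared with wild-type DED1 (NSY4) at 15 °C, and temperature-sensitive ded1-ts (NSY11) with another wild-type DED1 strain (NSY10) at 37 °C. Temperature-sensitive tif1-ts (NSY21) was compared with wild-type TIF1 (NSY20) at both 30 °C and 37 °C. TIF1 is 1 of a pair of genes for eIF4A, and the labels do not say whether these strains carry TIF2. Each mutant was 1 labelled strain, and each comparison had its own wild-type and mutant groups. Both tif1-ts comparisons share their strains and differ in temperature, while ded1-ts and tif1-ts at 37 °C share the temperature and differ in strains. Between the other tables strain and temperature both differ and cannot be told apart. How the comparisons were batched is not known here, so a batch cannot be told apart from any of these differences. Conditional alleles still make mRNA, so the level of the mutated gene is no check of the labels.

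The smallest steps between footprint values put the depth at 3.88 M to 12.03 M footprint reads per group. For mRNA the depth is unknown. A gene counted when the mean abundance of wild type and mutant was at least 10 in both assays. Values for the 4 tables are given in the order ded1-cs, ded1-ts, tif1-ts (30 °C) and tif1-ts (37 °C) throughout. They had 4855, 5238, 4833 and 4854 such genes. All members present passed except DUR3 in tif1-ts at 37 °C, which left 9, 10, 9 and 8 members. The changes given are log2 values, mutant minus wild type, and a change of at least 2-fold means at least 1 on that scale.

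In the wild types, GLN1, GDH1 and GLT1 had more footprints per kb than any of the transporters, while GDH3, at 51.0 per kb in wild-type DED1 at 37 °C, had fewer than MEP3, MEP1 and GAP1 there. Per kb of coding length, GLN1 had a footprint abundance of 5609 at 15 °C, 4468 in wild-type DED1 at 37 °C, 2395 in wild-type TIF1 at 30 °C and 1696 at 37 °C. GDH1 came next with 1165, 2258, 1772 and 938 on the same scale and in the same order. GLT1, the longest gene of the set at 6438 nt, followed with 274, 840, 373 and 222 per kb. The order of these 3 enzymes was the same in all 4 wild types. The most abundant transporter per kb was GAP1 at 15 °C (146), in wild-type TIF1 at 30 °C (103) and at 37 °C (44.4), and MEP3 in wild-type DED1 at 37 °C (146). DUR3 was the lowest member of every wild type, with 23.9, 16.1, 6.58 and 1.06 footprints per kb. Abundances were normalized within each table, so these levels are set side by side and not compared between tables.

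The TE level, the log2 footprint level minus the log2 mRNA level, split the set. GLT1 mRNA was among the best translated in every wild type, at percentiles 96.5, 98.9, 99.5 and 97.7 of all genes that counted. GDH1 lay at percentiles 92.7, 81.8, 97.3 and 97.3, and GLN1 at 95.9, 75.1, 81.3 and 57.6. GDH2, the catabolic dehydrogenase, lay at the low end with percentiles 25.0, 22.9, 4.80 and 33.6. Among the transporters, GAP1 was in the middle, between percentiles 51.2 and 79.8, and MEP3 between 11.5 and 27.1. MEP2 ranged from percentile 35.2 at 15 °C to 3.93 in wild-type TIF1 at 37 °C. DUR3 lay at percentiles 30.2, 1.81, 1.97 and 0.0412, the lowest of the set in every wild type but that at 15 °C, where MEP3 and GDH2 were below it.

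**Figure D1:**
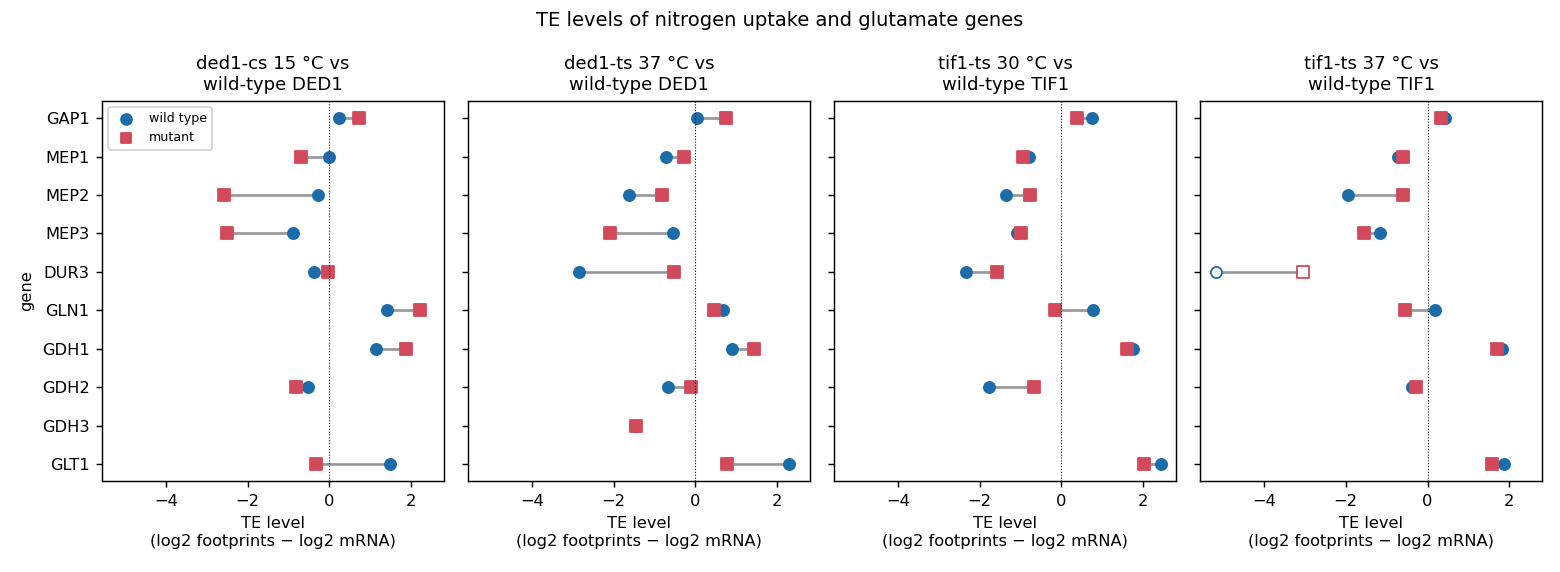
TE level (log2 footprint level minus log2 mRNA level, the authors' values) of each gene in the wild type (circles) and the mutant (squares) of the 4 tables; open symbols mark DUR3 in tif1-ts at 37 °C, which was under the abundance limit. GLT1 is furthest to the right in each wild type, DUR3 is furthest to the left in all but that at 15 °C, where MEP3 is, and the longest lines are those of MEP2, MEP3 and GLT1 in ded1-cs, of DUR3, GLT1 and MEP3 in ded1-ts and of DUR3 and MEP2 in tif1-ts at 37 °C.

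DUR3 (YHL016C), the urea and polyamine transporter, had more footprints in the mutant of every table, by more than its mRNA differed. Its log2 footprint levels, wild type then mutant, were 5.72 and 6.57 at 15 °C, 5.15 and 8.07 in the ded1-ts table, 3.86 and 5.03 in tif1-ts at 30 °C, and 1.22 and 3.46 at 37 °C. The matching mRNA levels were 6.1 and 6.6, 8 and 8.59, 6.2 and 6.6, and 6.4 and 6.5. The mutant was thus above its wild type in all 4 pairs of footprint levels. The authors' deposited table gives DUR3 a TE change of 0.32 for ded1-cs, of 2.28 for ded1-ts, and of 0.81 (30 °C) and 2.20 (37 °C) for tif1-ts. Of 4822 genes with footprints in every group, 19.2% had a TE change above 0 in all 4 tables. The ded1-ts footprint change of 2.92 in the authors' deposited table is a 7.56-fold difference, and the TE change ranked 12 from the top among 5238 genes. It rested on an estimated 41 reads in the wild type and 326 in the mutant, and its standard error from counting alone was 0.24. At 37 °C in tif1-ts the estimate was only 9.0 and 16.0 reads, and the 95% counting interval of the footprint change ran from 1.06 to 3.41.

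GAP1 (YKR039W), the general amino acid permease, differed most in ded1-ts, where both its mRNA and its TE were higher. Its footprint levels were 8.05 and 8.33 in wild type and mutant at 15 °C, 7.44 and 8.83 in the ded1-ts table, 7.54 and 7.48 in tif1-ts at 30 °C, and 6.33 and 6.14 at 37 °C. Its mRNA levels were 7.8 and 7.6, 7.4 and 8.08, 6.8 and 7.1, and 5.9 and 5.8. The ded1-ts change split into 0.69 for mRNA and 0.70 for TE in the authors' deposited table, which put the footprints 2.63-fold higher. In tif1-ts the 95% counting interval of the GAP1 footprint change held 0 at 30 °C (-0.29 to 0.16) and at 37 °C (-0.50 to 0.14).

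The 3 ammonium permeases did not move together. MEP2 (YNL142W), the high-affinity permease that also signals ammonium supply in filamentous growth, had footprint levels of 5.93 in wild type and 3.82 in ded1-cs, 6.17 and 7.45 in the ded1-ts table, 4.65 and 5.42 in tif1-ts at 30 °C, and 4.36 and 5.30 at 37 °C. Its mRNA levels differed less, at 6.2 and 6.4, 7.8 and 8.27, 6.0 and 6.2, and 6.3 and 5.9. MEP2 footprints were therefore lower than in the wild type in ded1-cs and higher in the other 3 mutants. For MEP2 the authors' deposited table gives a TE change of -2.27 for ded1-cs, of 0.83 for ded1-ts, and of 0.55 (30 °C) and 1.34 (37 °C) for tif1-ts. The value in ded1-cs ranked 140 from the bottom among 4855 genes, and that in tif1-ts at 37 °C ranked 114 from the top among 4854. Counting error of the footprint change was 0.37 in ded1-cs, where the mutant had an estimated 16.5 reads and the read estimate was the least certain, and between 0.19 and 0.28 elsewhere.

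MEP3 (YPR138C), a low-affinity, high-capacity ammonium permease, had a lower TE in both DED1 mutants. Its footprint levels were 6.81 in wild type and 5.09 in ded1-cs, 7.75 and 7.0 in the ded1-ts table, 5.92 and 6.32 in tif1-ts at 30 °C, and 5.54 and 5.35 at 37 °C. Its mRNA levels were 7.7 and 7.6, 8.3 and 9.08, 7.0 and 7.3, and 6.7 and 6.9. The authors' deposited table gives MEP3 a TE change of -1.61 for ded1-cs and of -1.50 for ded1-ts, against 0.03 (30 °C) and -0.46 (37 °C) for tif1-ts. In ded1-ts the lower footprints came with more mRNA, a change of 0.75 in the authors' deposited table, and the TE change ranked 98 from the bottom. MEP1 (YGR121C), the third permease, had footprint levels of 5.48 and 5.11, 7.37 and 7.03, 4.41 and 4.86, and 5.59 and 4.99, wild type then mutant. Its mRNA levels were 5.5 and 5.8, 8.1 and 7.31, 5.2 and 5.8, and 6.3 and 5.6. It had TE changes between -0.62 and 0.41 in the authors' deposited table. Its mRNA was lower in both mutants at 37 °C, with changes of -0.75 for ded1-ts and -0.76 for tif1-ts in the authors' deposited table. MEP1 and MEP3 are the more similar pair of the 3, and the sources used here do not give how reads that match several genes were counted, so their split is uncertain.

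Set against each other within a table, MEP2 and MEP3 were furthest apart in the mutants at 37 °C. The TE change of MEP2 exceeded that of MEP3 by 2.33 in ded1-ts and by 1.8 in tif1-ts at 37 °C, and the difference of their footprint changes had a counting error of 0.24 and 0.33. At 30 °C the TE difference was 0.53, and in ded1-cs it was -0.66. The footprint changes of MEP2 and MEP3 in ded1-cs differed by only -0.38, with a counting error of 0.44. As a share of the footprints per kb of all 3 genes, MEP2 went from 15.7% in wild-type DED1 at 37 °C to 39.9% in ded1-ts, and from 17.6% to 34.8% in TIF1 cells at 37 °C. The sum over the 3 genes hardly differed there, at 306 and 292 per kb in the ded1-ts table and 77.7 and 75.5 in tif1-ts. In ded1-cs the sum was 55.9 per kb against 147 in its wild type, while the summed mRNA was 226 against 221 per kb.

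**Figure D2:**
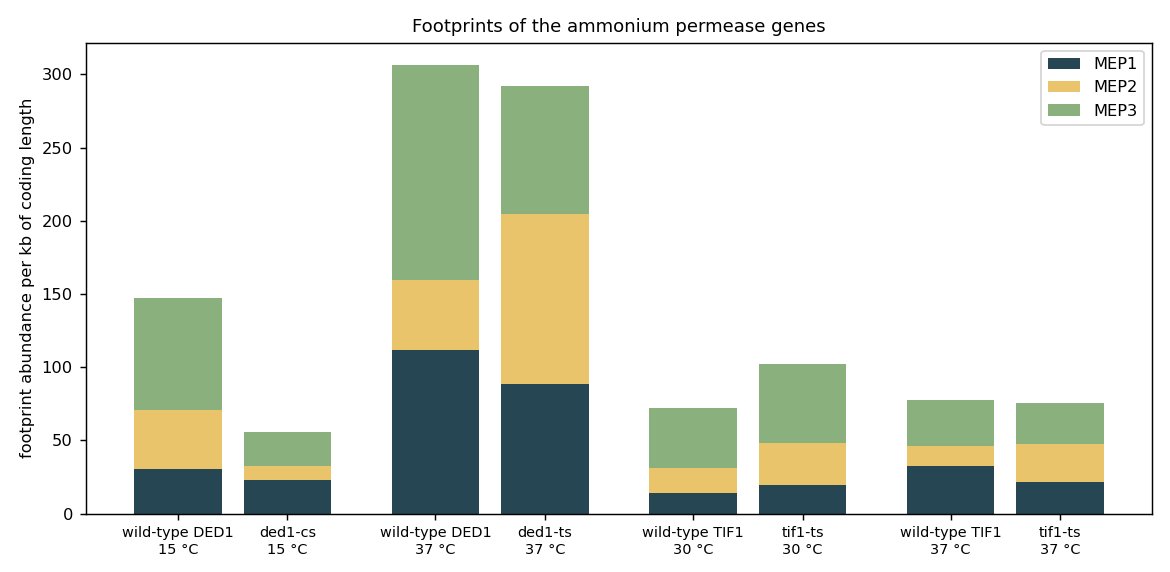
Footprint abundance per kb of coding length of MEP1, MEP2 and MEP3, stacked, in the 8 strain and temperature groups; each bar is the sum over the 3 genes from the authors' pooled values, and heights are comparable only within a pair. The ded1-cs bar is the only mutant bar well below its wild type (55.9 against 147), and the MEP2 segment is larger in both mutants at 37 °C.

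GDH1 (YOR375C), the main ammonium-assimilating dehydrogenase in cells grown on glucose, kept a high TE in every group. Footprint levels were 10.64 and 11.47 in wild type and mutant at 15 °C, 11.59 and 12.15 in the ded1-ts table, 11.24 and 11.51 in tif1-ts at 30 °C, and 10.32 and 9.29 at 37 °C. Its mRNA levels were 9.5 and 9.6, 10.7 and 10.72, 9.5 and 9.9, and 8.5 and 7.6. Only in tif1-ts at 37 °C were the footprints below the wild type. There the mRNA change of -0.96 nearly equalled the footprint change of -1.03 in the authors' deposited table, and the TE change was -0.07. In the DED1 mutants the TE change was 0.74 in ded1-cs and 0.49 in ded1-ts, beside mRNA changes of 0.09 and 0.06, per the authors' deposited table. Counting error of these footprint changes was at most 0.05.

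GDH3 (YAL062W), the paralog of GDH1 that is known to be used mainly on ethanol, was measured in the ded1-ts table alone. Its footprint levels were 6.13 in wild type and 7.23 in ded1-ts, and its mRNA levels were 7.6 and 8.68. The authors' deposited table gives it a footprint change of 1.10, an mRNA change of 1.05 and a TE change of 0.05. It was the only member with an mRNA change of at least 2-fold in any table, where 2.52% of all genes had mRNA at least 2-fold higher. As a paralog of a far more abundant gene, GDH3 may share reads with GDH1, which was not tested.

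GDH2 (YDL215C), the NAD-dependent dehydrogenase that breaks glutamate down, had more mRNA in all 4 mutants. In that order, the authors' deposited table gives mRNA changes of 0.40, 0.49, 0.44 and 0.25. By table, 53.4%, 49.3%, 48.2% and 46.9% of all genes had an mRNA change above 0. The share above 0 in all 4 was not computed. DUR3, under the abundance limit in tif1-ts at 37 °C, also had mRNA changes above 0 in all 4. The GDH2 footprint levels were 8.18 and 8.29 at 15 °C, 9.22 and 10.33 in the ded1-ts table, 6.73 and 8.23 in tif1-ts at 30 °C, and 7.93 and 8.31 at 37 °C. The mRNA levels were 8.7 and 9.1, 9.9 and 10.43, 8.5 and 8.9, and 8.3 and 8.6. The largest difference was the one at 30 °C, where the TE change was 1.06 in the authors' deposited table and ranked 93 from the top among 4833 genes. The counting error of that footprint change was 0.12. Per kb, the footprints of GDH1 exceeded those of GDH2 by 54.7 times in wild-type TIF1 at 30 °C and by 23.3 times in tif1-ts. At 37 °C the ratio was 12.6 in the wild type and 4.74 in tif1-ts.

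GLT1 (YDL171C), the glutamate synthase, had the highest wild-type TE of the set in all 4 tables and a lower TE in every mutant. Footprint levels were 10.78 in wild type and 8.87 in ded1-cs, 12.4 and 11.26 in the ded1-ts table, 11.23 and 11.22 in tif1-ts at 30 °C, and 10.48 and 10.57 at 37 °C. Its mRNA levels were 9.3 and 9.2, 10.1 and 10.49, 8.8 and 9.2, and 8.6 and 9.0. Footprints of wild type and mutant were well apart in both DED1 tables and within 0.1 of each other in both TIF1 tables. The authors' deposited table gives GLT1 a TE change of -1.72 for ded1-cs, of -1.50 for ded1-ts, and of -0.43 (30 °C) and -0.33 (37 °C) for tif1-ts. Among genes with footprints in every group, 11.3% had a TE change below 0 in all 4 tables. Its footprints were 3.76-fold lower in ded1-cs and 2.20-fold lower in ded1-ts, with counting errors of 0.06 and 0.03 on the log2 scale, while the authors' deposited table has mRNA changes of -0.19 and 0.36. Per kb, GDH1 footprints exceeded those of GLT1 by 4.26 times in wild type and 28.6 times in ded1-cs, and by 2.69 and 8.74 times in the ded1-ts table. In both TIF1 tables the lower TE came with an mRNA change of 0.43 and near-equal footprints in the authors' deposited table. Beside these values, the median TE change of the genes of at least 4000 nt was -0.82, -0.28, -0.07 and -0.42 in the same order, over 183 to 187 genes. The part of coding length in the GLT1 values was not tested.

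GLN1 (YPR035W), the glutamine synthetase, had a higher TE than its wild type in ded1-cs and a lower one in the other 3 mutants. Footprint levels were 12.61 and 12.51 at 15 °C, 12.28 and 11.59 in the ded1-ts table, 11.38 and 10.73 in tif1-ts at 30 °C, and 10.88 and 10.76 at 37 °C, so the mutant was lower in every pair. Its mRNA levels were 11.2 and 10.3, 11.6 and 11.13, 10.6 and 10.9, and 10.7 and 11.3. Its mRNA was lower in the DED1 mutants and higher in tif1-ts, and the authors' deposited table gives changes of -0.85, -0.51, 0.35 and 0.64. For TE the authors' deposited table gives 0.75 for ded1-cs, -0.17 for ded1-ts, and -1.001 (30 °C) and -0.76 (37 °C) for tif1-ts. The value at 30 °C ranked 55 from the bottom among 4833 genes. It stood at the 2-fold limit, and recomputing it from the deposited levels, which give mRNA to 1 decimal, put it inside that limit.

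**Figure D3:**
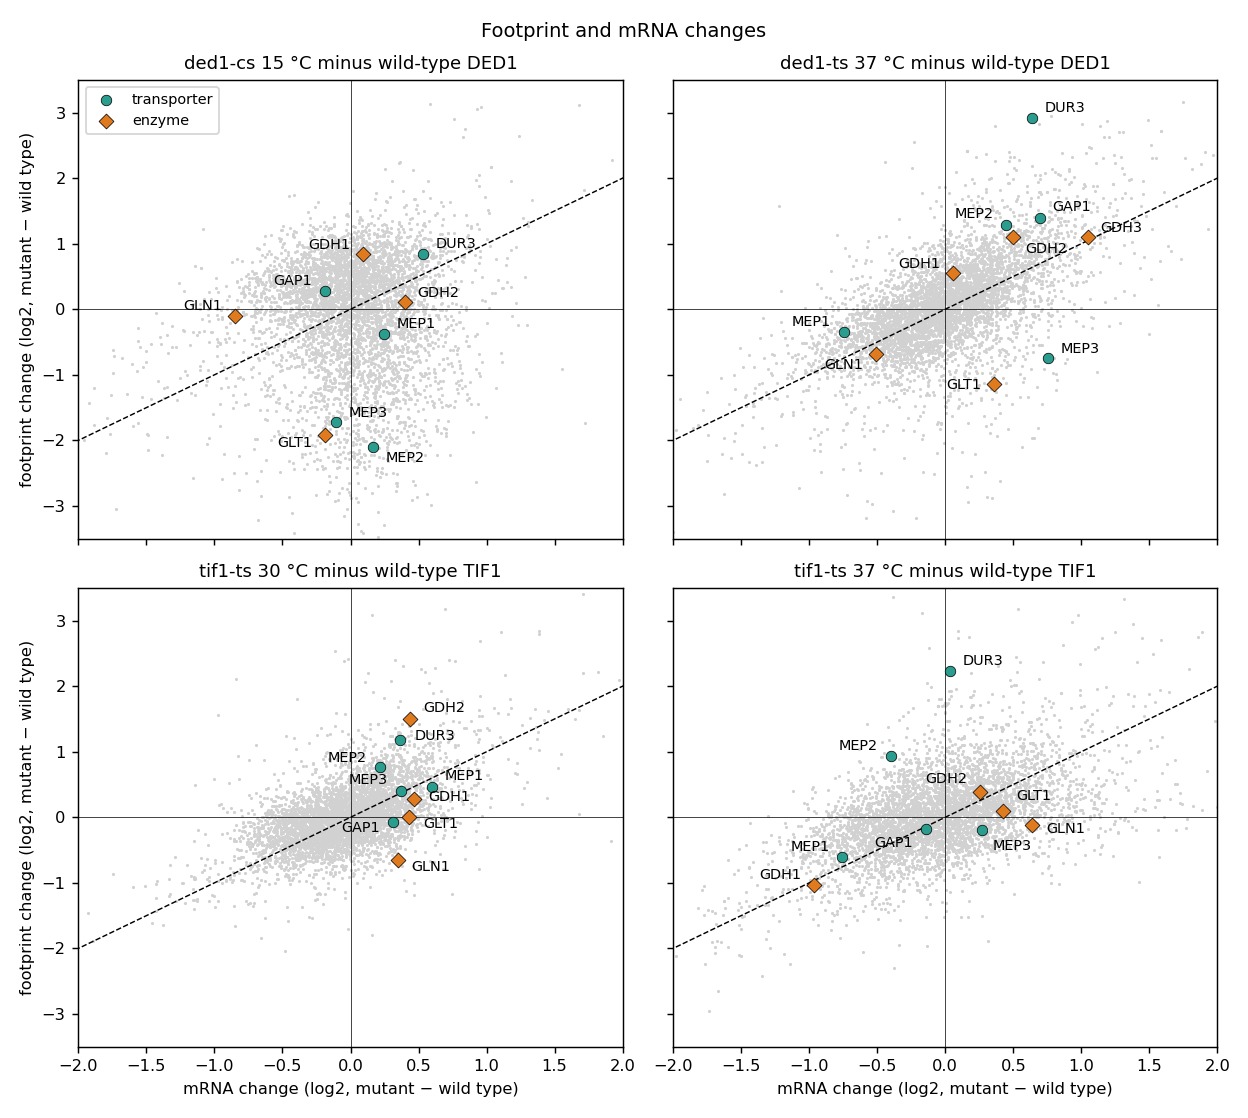
Footprint change against mRNA change (log2, mutant minus wild type, the authors' deposited differences) in the 4 tables; grey points are all genes that counted, circles transporters and diamonds enzymes, and the dashed line marks no change of TE. Between 13 and 42 grey points per panel lie outside the axes. DUR3 in tif1-ts at 37 °C is drawn like the other members but was under the abundance limit. MEP2, MEP3 and GLT1 lie well below the line in ded1-cs, DUR3 well above and MEP3 and GLT1 below it in ded1-ts, and GDH1 on it in tif1-ts at 37 °C.

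Counted over the set, the TE of 3 of 9 members was lower by 2-fold or more in ded1-cs (MEP2, MEP3 and GLT1) and that of none was higher by as much, beside 17.4% and 8.63% of all genes. The median TE change of the 9 was -0.29 against 0.10 for all genes in that table. In ded1-ts 2 of 10 were lower (MEP3 and GLT1) and 1 was higher (DUR3), beside 4.64% and 4.18% of all genes, and the median was 0.45 against 0.08. At 30 °C in tif1-ts 1 of 9 was lower (GLN1) and 1 higher (GDH2), beside 1.14% and 2.34% of all genes, with a median of -0.15 against 0.04. At 37 °C in tif1-ts none of 8 was lower and 1 was higher (MEP2), beside 3.19% and 5.27% of all genes, with a median of -0.05 against 0.08. The same contrasts served to choose the set, so nothing is read from these shares.

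Changes of mRNA by at least 2-fold were rare among all genes too, and nothing is read from the member counts. In ded1-cs 0 of 9 members were lower or higher, beside 2.04% and 0.844% of all genes, and in ded1-ts 0 of 10 were lower and 1 was higher (GDH3), beside 2.58% and 2.52%. In tif1-ts none was lower or higher, among 9 members at 30 °C, beside 1.03% and 1.3% of all genes, and among 8 at 37 °C, beside 3.23% and 3.79%.

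Footprints in ded1-ts were at least 2-fold higher for 5 of 10 members (GAP1, MEP2, DUR3, GDH2 and GDH3) and lower for 1 (GLT1), beside 8.57% and 6.19% of all genes. The 5 had mRNA changes from 0.45 to 1.05 in the authors' deposited table, all above 0. The 95% counting intervals of MEP2, GDH2 and GDH3 began below the 2-fold limit, at 0.92, 0.98 and 0.72. In ded1-cs the 3 members with lower TE were also the 3 with footprints at least 2-fold lower, beside 16.4% of all genes, and none was higher, beside 6.26%. There MEP2, MEP3 and GLT1 had mRNA changes of 0.17, -0.11 and -0.19. The overlap therefore follows largely from how TE is computed. In tif1-ts footprints were at least 2-fold higher for DUR3 and GDH2 at 30 °C and lower for none, beside 4.28% and 1.49% of all genes. At 37 °C they were at least 2-fold lower for GDH1 and higher for none, beside 4.16% and 6.37%. The 95% counting intervals of DUR3 at 30 °C (0.50 to 1.85) and of GDH1 at 37 °C (-1.13 to -0.93) held the 2-fold limit. All 9 members had an mRNA change above 0 in tif1-ts at 30 °C, between 0.21 and 0.60 in the authors' deposited table, where 48.2% of all genes did. The number was 5 of 9 in ded1-cs, 8 of 10 in ded1-ts and 4 of 8 in tif1-ts at 37 °C, beside 53.4%, 49.3% and 46.9% of all genes.

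**Figure D4:**
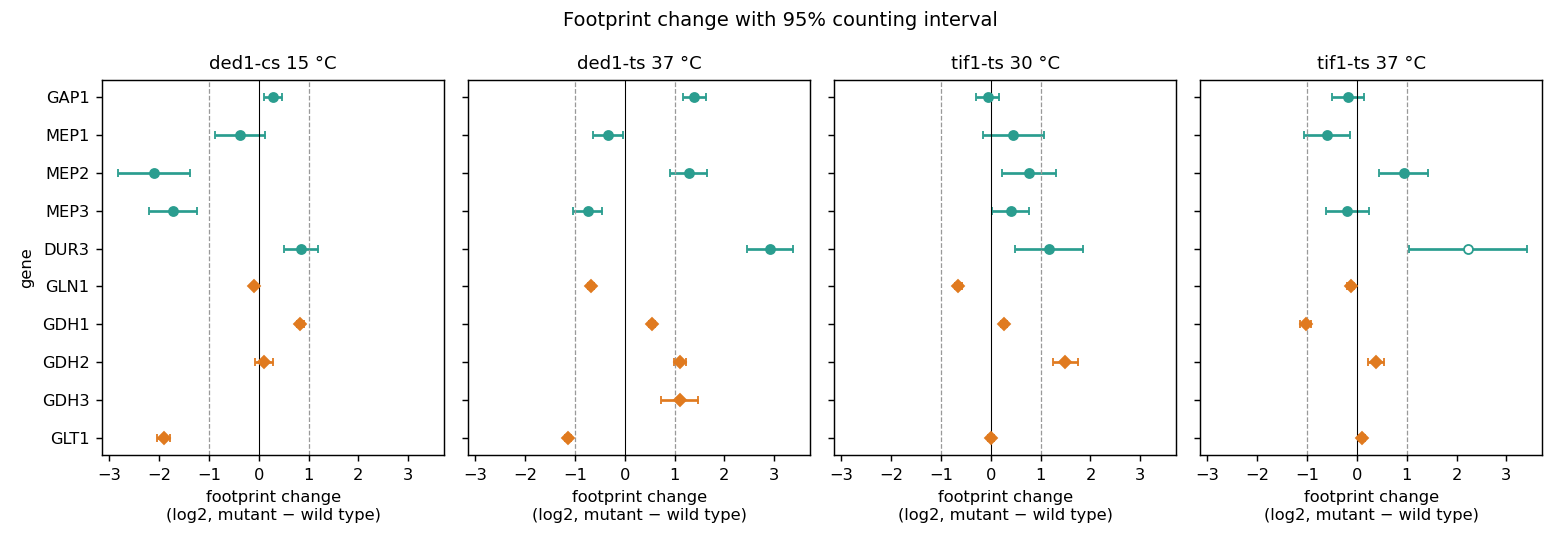
Footprint change (log2, mutant minus wild type) of each gene in the 4 tables, with 95% intervals from the estimated read numbers (counting error only); circles are transporters, diamonds enzymes, and the open circle is DUR3 in tif1-ts at 37 °C, under the abundance limit. Dashed lines mark a 2-fold change: MEP2, MEP3 and GLT1 lie beyond it in ded1-cs, and DUR3, GAP1, MEP2, GDH2 and GDH3 on the higher side in ded1-ts. In ded1-ts the intervals of MEP2, GDH2 and GDH3 reach across the line.

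The wider nitrogen network was described through 65 further genes in 4 lists, of which 53, 62, 52 and 53 counted in the 4 tables. Their median TE change was -0.18 for ded1-cs and 0.28 for ded1-ts, and -0.02 (30 °C) and 0.27 (37 °C) for tif1-ts. By at least 2-fold, TE was lower for 9 and higher for 2 in ded1-cs, beside 17.4% and 8.63% of all genes, and lower for 1 and higher for 9 in ded1-ts, beside 4.64% and 4.18%. For tif1-ts these numbers were 2 and 4 at 30 °C, beside 1.14% and 2.34%, and 0 and 9 at 37 °C, beside 3.19% and 5.27%. The 4 higher ones at 30 °C were the 4 copies of ASP3, whose entries are identical and amount to a single measurement. These copies were also 4 of the 9 in ded1-ts and 4 of the 9 in tif1-ts at 37 °C, and they enter the medians as 4 genes. IDP2, another of the 9 in tif1-ts at 37 °C, passed the abundance limit only through the mutant. Its log2 footprint levels were 0.371 in wild type and 4.9 in tif1-ts. SSY1, among the 9 lower in ded1-cs, and OPT2, among the 9 higher in ded1-ts, passed that limit only through the wild type. The counts are therefore not comparable with the shares of all genes. Relative to the median of all genes the split in ded1-cs was 9 lower and 1 higher, that at 30 °C 4 lower and 4 higher, that in ded1-ts 2 lower and 8 higher, and that at 37 °C in tif1-ts 1 lower and 9 higher.

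Among regulators of catabolite repression and permease control, 7 of 19 genes passed the 2-fold limit downward for TE in ded1-cs, beside 17.4% of all genes. The number was 0 of 19 in each of the other tables, beside 4.64%, 1.14% and 3.19% of all genes, and the difference between tables was not tested. The 7 included GZF3 (-1.51), a GATA-family repressor, and URE2 (-1.23), which retains Gln3 in the cytoplasm, in the authors' deposited table. SSY1, also among the 7, passed the abundance limit only through the wild type. Its log2 footprint levels were 5.08 in wild type and 2.98 in ded1-cs. SSY1, PUT3 and PTR3 did not reach an abundance of 100 there. Catabolic enzymes had TE at least 2-fold higher in 6 of 19 genes in ded1-ts, beside 4.18% of all genes, and in 6 of 16 in tif1-ts at 37 °C, beside 5.27%. The asparaginase gene ASP3 accounts for 4 of each 6, since its copies ASP3-1 to ASP3-4 hold identical entries. The authors' deposited table gives each copy a TE change of 0.86 for ded1-cs, of 2.25 for ded1-ts, and of 1.21 (30 °C) and 1.75 (37 °C) for tif1-ts. DUR1,2, the urea amidolyase that breaks down the urea imported by Dur3, has TE changes of 0.28, 1.04, -0.69 and 0.34 across the 4 mutants, per the authors' deposited table. In ded1-ts its mRNA change was 0.80 and its footprint change 1.84 in the authors' deposited table. CAR1, the arginase that makes urea, had a TE change of 1.12 in ded1-cs and an mRNA change of -1.28 in tif1-ts at 37 °C in the authors' deposited table.

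Among the other nitrogen permeases, all 5 that counted in tif1-ts at 30 °C had a TE change below 0, with a median of -0.94, where 45.4% of all genes were below 0. PTR2, the peptide transporter, was at least 2-fold lower, beside 1.14% of all genes. These permeases were picked out after their values were seen. DIP5, the dicarboxylic amino acid permease that imports glutamate and aspartate, had a TE change of -1.32 in ded1-cs in the authors' deposited table. In the supply of 2-oxoglutarate, PYC2, a pyruvate carboxylase, had a TE change of -1.68 in ded1-ts in the authors' deposited table. CIT2, the peroxisomal citrate synthase of the retrograde response, had TE changes of -1.04 (30 °C) and 1.77 (37 °C) for tif1-ts, and an mRNA change of 1.33 for ded1-cs, per the authors' deposited table. Lower mRNA of at least 2-fold was found for the glutamate decarboxylase GAD1 in ded1-cs (-1.49) and the serine and threonine deaminase CHA1 in ded1-ts (-1.13) in the authors' deposited table. Higher mRNA was found for the ornithine transaminase CAR2 in ded1-ts (1.18) and the pyruvate carboxylase PYC1 in tif1-ts at 37 °C (1.11) in the authors' deposited table.

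**Figure D5:**
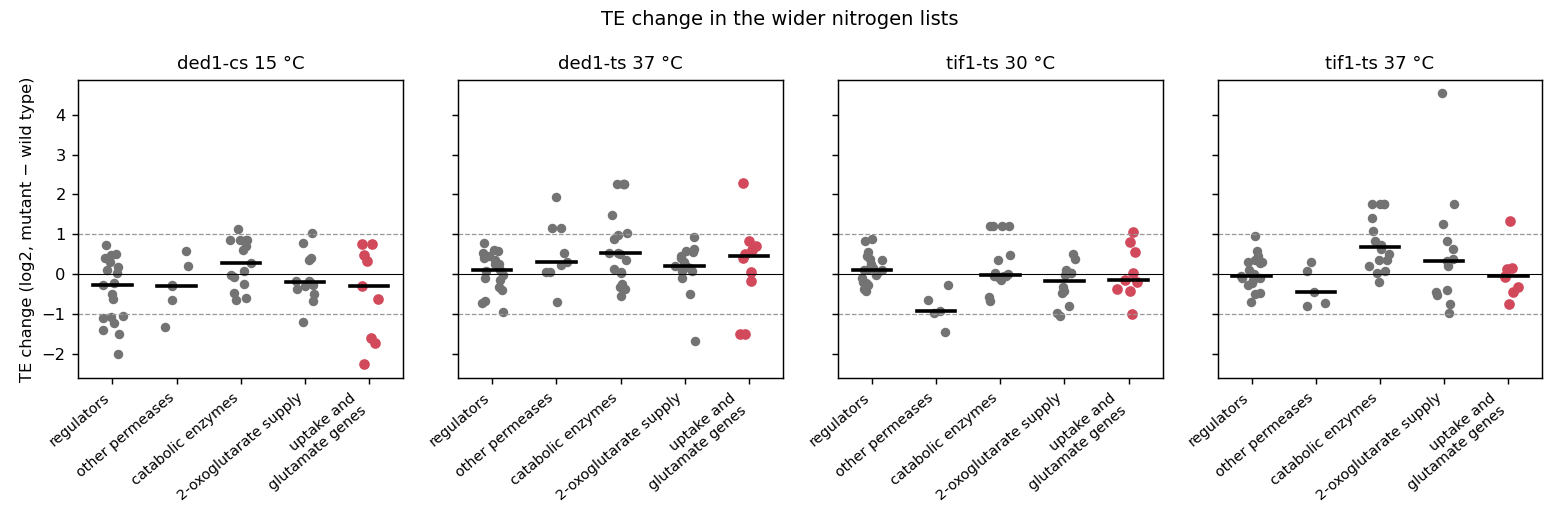
TE change (log2, mutant minus wild type) of the genes of the 4 wider nitrogen lists (grey) and of the uptake and glutamate genes (red) that passed the abundance limit in each table; horizontal bars are medians and dashed lines mark 2-fold. The catabolic enzymes have medians of 0.52 in ded1-ts and 0.68 in tif1-ts at 37 °C, and the other permeases one of -0.94 in tif1-ts at 30 °C. The catabolic medians count the 4 identical ASP3 copies as 4 genes. With TE changes of 2.25 and 1.75 these copies lie above both medians, so counting ASP3 once would lower them.

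Genes that behaved most like the extremes of the set were sought over the 8 footprint and mRNA changes of the 4 tables. For GLT1 the nearest of 2183 abundant named genes were NAB6 (Euclidean distance 0.57), the drug efflux pump gene SNQ2 (0.58) and GIP3 (0.65), against a median distance of 2.65. In ded1-cs and ded1-ts the TE change was -2.28 and -1.38 for NAB6, -1.60 and -1.76 for SNQ2, and -1.88 and -0.91 for GIP3, in the authors' deposited table. The TE change is the difference of the footprint and mRNA changes used in the search. Likeness to GLT1 in TE therefore follows from how these genes were found. For DUR3, taken as the member with the highest TE change, the nearest of 2184 such genes was HSP31, at a distance of 1.72. MCH4 (2.45) and the pheromone gene MFA1 (2.47) followed, against a median distance of 4.53. An extreme gene was bound to lie far from most others, so no lack of close neighbours is read from this. Candidates needed an abundance of at least 100 in all 4 tables, which DUR3 itself reached only in ded1-ts. Weakly expressed genes like it were therefore not searched. Its profile also held tif1-ts at 37 °C, where it was under the abundance limit.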

How the data were processed

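The authors deposited 4 tables of log2 normalized abundances per gene, 1 column per group of 2 replicates, with their log2 differences of mutant minus wild type; the sources used here do not give how the replicates were merged. CASAVA 1.8, Bowtie2 2.0.6, TopHat2 2.0.7, DESeq and build sacCer2 are named without roles, per the submitters' processing notes. The sources used here do not give strand use, filters or the treatment of reads with several matches. Normalization was within each table, so each change is set against the rest of its table.

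Python 3.11.15 with pandas 2.3.3 and numpy 2.4.6 computed everything else. The value of 1 footprint read was estimated for each column from the spacing of the lowest values; among genes of up to 10 reads, 43.0% to 100% lay within 0.1 read of a whole number, the lowest share being that of ded1-cs, whose read numbers are the least certain. Counting errors come from these reads, cover neither differences between cultures nor mRNA, and treat reads without molecular identifiers as independent. Footprint levels below -20 stood for 0 reads. The read estimate and the 2-fold limit for footprints were tried on reads simulated from the wild-type columns, with planted changes. The simulated reads were whole numbers by construction, so this is no check of the read estimates in the data. TE, mRNA and the mutant columns were not simulated. Coding lengths came from a RefSeq gene table of assembly R64, and no coordinates are given since its build differs. Sequences were not used here.

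The members, the 65 further genes and the rules were chosen with earlier results of these data known. Members were all named. From the wider lists, up to 3 genes per direction were named, with abundance of at least 100 and a change of at least 2-fold in TE or mRNA. DUR1,2, ASP3-1 and the 30 °C permeases were added after their values were seen. IDP2, SSY1, OPT2, PUT3 and PTR3 were named only for their low abundance. A gene that the rule names is not reported here. Of the 65, DAL2 and DAL80 were not analysed here. The alternatives tried were no abundance limit, a limit of 100, centring on the median of all genes and recomputing changes from levels. The count model named in the plan needs replicate counts and was not run.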

Additional observations from a re-analysis of the deposited data

Results flagged for a closer look

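MEP2 was at least 2-fold lower in one mutant and at least 2-fold higher in another. Its TE change was -2.27 in ded1-cs and 1.34 in tif1-ts at 37 °C, and its footprint change was -2.11 in ded1-cs and 1.28 in ded1-ts, in the authors' deposited table. The difference between these mutants was not tested, since each group has 1 value. Between ded1-cs and either of the other mutants, strain, temperature and any batch cannot be told apart.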

How the results depend on the processing

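No paired analysis was possible because the files hold 1 value per group and no column per replicate; leaving out replicates was not run for the same reason. All 24 counts of changes of at least 2-fold stayed within 1.5 times when centred on the median of all genes, which was at most 0.10. With an abundance limit of 100, members with a TE or footprint change of that size went from 3 to 1 in ded1-cs (GLT1 was left), those with a TE change from 1 to 0 in tif1-ts at 37 °C, and those with a footprint change from 2 to 1 at 30 °C. With no limit, DUR3 entered in tif1-ts at 37 °C and both counts went from 1 to 2. Recomputed from deposited levels, the TE count at 30 °C went from 2 to 1, since GLN1 left it. For the 65 further genes, a limit of 100 took the TE count from 10 to 6 and the mRNA count from 4 to 2 in ded1-ts, and the TE, mRNA and footprint counts at 30 °C from 6 to 1, 2 to 0 and 7 to 2. No change of at least 2-fold turned its sign. Centring took 3 values near 0 across it, the TE change of GDH3 in ded1-ts (0.05 to -0.02), that of MEP3 in tif1-ts at 30 °C (0.03 to -0.02) and the footprint change of GLT1 there (-0.003 to 0.005). Fewer genes enter under the higher limit by construction. Depth limits DUR3 and the MEP genes most, with as few as 9.0 estimated reads in a group.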
